A study of Mus musculus with 6 samples.

Results

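The miR-99/100 and miR-125 families are 2 groups of small RNAs that sit side by side in the same genomic clusters, and 5 of their mature strands were examined in mouse kidney: mmu-miR-99a-5p, mmu-miR-99b-5p, mmu-miR-100-5p, mmu-miR-125a-5p and mmu-miR-125b-5p. They were chosen by name, and all 5 were found among the 495 mature miRNAs of the table. Small RNA libraries had been made from kidney tissue of male balb/c mice, with 3 Control and 3 CIH samples. CIH stands for chronic intermittent hypoxia, a mouse model of obstructive sleep apnea in which inspired oxygen fell from 21% to 6% within 60 s and returned within the next 60 s. The cycle took 2 minutes, with 30 in an hour, and was kept up for 8 hours daily during 8 weeks, while Control mice breathed room air in the same kind of chamber. The age of the mice was not given in the labels or methods. Nor was it stated whether the 6 samples are 6 animals, so a p-value here covers only how far these samples scatter, which may be technical. In a tissue of mixed cells, fewer cells of a type and less of a miRNA per cell cannot be told apart.

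A miRNA guides a silencing complex to messenger RNAs that pair with its seed, bases 2 to 8 from the 5′ end. The miR-99/100 family is known for restraining growth signalling through Mtor, the kinase at the centre of the mTOR pathway, and Igf1r, a growth factor receptor. The miR-125 family is the mammalian counterpart of lin-4, the developmental timing RNA of the worm Caenorhabditis elegans, and is known for repressing Lin28a, a blocker of let-7 maturation. The sequences, from RefSeq on build GRCm38.p6, show how the members fall into families, with the seed in capitals:
mmu-miR-99a-5p: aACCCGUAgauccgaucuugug
mmu-miR-100-5p: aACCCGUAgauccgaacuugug
mmu-miR-99b-5p: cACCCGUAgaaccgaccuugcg
mmu-miR-125a-5p: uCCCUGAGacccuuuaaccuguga
mmu-miR-125b-5p: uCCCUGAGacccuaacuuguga
The miR-99/100 members share the seed ACCCGUA and the miR-125 members share CCCUGAG. Counting from 1 at the 5′ end, mmu-miR-99a-5p and mmu-miR-100-5p differ by a single change, U16A. mmu-miR-99a-5p and mmu-miR-99b-5p differ by 4 changes, A1C, U11A, U16C and U21C. mmu-miR-125a-5p has 24 bases and mmu-miR-125b-5p 22, and their first 13 bases are identical. With so few differences, how the authors' alignment divided reads between mmu-miR-99a-5p and mmu-miR-100-5p could move the level of the scarcer of the pair, and this was not tested.

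The members come from 3 clusters, each with the order miR-99 or miR-100, a let-7, then a miR-125. On chromosome 16 of GRCm38, Mir99a (77598936 to 77599000), Mirlet7c-1 and Mir125b-2 (77646273 to 77646343) lie within 47408 bp, in introns of the noncoding Mir99ahg and on its strand. On chromosome 9, Mir100 (41531425 to 41531504), Mirlet7a-2 and Mir125b-1 (41581926 to 41582002) lie within 50578 bp, in introns of the noncoding 3110039I08Rik on the same strand. Mir100 also overlaps an exon of the antisense Gm48742, and Mir125b-1 an exon of Gm28119. The cluster on chromosome 17 is far more compact. There, Mir99b (17830188 to 17830257), Mirlet7e (17830352 to 17830444) and Mir125a (17830812 to 17830879) fit into 692 bp inside Spaca6, a gene of sperm-egg fusion, with Mir99b and Mirlet7e in an intron and Mir125a over an annotated exon. Only this cluster gives a mature strand of each kind that no other locus makes, since mmu-miR-125b-5p and mmu-let-7c-5p each have another precursor elsewhere.

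The seed matches in known target messages show what each family can pair with, and no target was measured in these libraries. Sites are from GENCODE M21 transcripts on GRCm38, as DNA letters of the message strand, with the 7-base seed match in capitals:
Mtor, chr4:148557138-148557161, plus strand: taactgagaaaTACGGGTtttgac
Igf1r, chr7:68232096-68232119, plus strand: gtccagtagatTACGGGTagtcgt
Smarca5, chr8:80701007-80701030, minus strand: gttctttaattTACGGGTcttcat
Lin28a, chr4:134005296-134005319, minus strand: acatgagcaatCTCAGGGataata
Lin28b, chr10:45378793-45378816, minus strand: aaagaactttgCTCAGGGaacata
Bak1, chr17:27020311-27020334, minus strand: gcggctggactCTCAGGGattctg
TACGGGT, the match of the miR-99/100 seed, occurred in the 3′ UTR of 3 of the 4 messages searched, and was absent from that of Fkbp5. It contains a CG and was rare, in 254 of 21153 3′ UTRs (1.2%, longest 3′ UTR per gene, message strand only). CTCAGGG, the match of the miR-125 seed, occurred in 2987 of them (14.1%), and in 5 of the 6 messages searched. Besides the 3 shown, these were Tnfaip3, an inhibitor of NF-kB, and Irf4, a lymphocyte transcription factor, while Erbb2 had no match in its 3′ UTR. The messages were searched because they are known targets, so their counts cannot be set against the shares over all 3′ UTRs. Length differed too, from 823 bases (Mtor) to 7267 (Igf1r), where the median over all 3′ UTRs was 1084. A seed match is a description of letters and not evidence of binding.

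In kidney, mmu-miR-99a-5p stood far above its relatives. Levels are counts per 1000000 (CPM) on library totals scaled by TMM, a normalization that evens out composition between libraries. The mean of mmu-miR-99a-5p was 59405 ± 5290 CPM in Control libraries and 51189 ± 3368 in CIH libraries (SD, n = 3 each), and it ranked 5 of 495 by mean CPM over the 6 libraries. mmu-miR-99b-5p followed at rank 41, mmu-miR-100-5p at 50, mmu-miR-125b-5p at 57 and mmu-miR-125a-5p at 80. This order was the same in 6 of 6 libraries. mmu-miR-99a-5p exceeded mmu-miR-99b-5p by 13.7-fold to 19.0-fold within a library, and mmu-miR-125b-5p exceeded mmu-miR-125a-5p by 2.23-fold to 2.91-fold. For mmu-miR-99b-5p and mmu-miR-100-5p, and for mmu-miR-100-5p and mmu-miR-125b-5p, the ranges over libraries overlapped, with within-library ratios of 1.26 to 1.59 and of 1.07 to 1.89. The mature strands have 22 to 24 bases, so length barely enters these comparisons of CPM, but ligation efficiency can differ between miRNAs and was not measured. Together the 3 miR-99/100 members took 6.37% ± 0.27 (SD, n = 3) of Control counts and 5.80% ± 0.32 (SD, n = 3) of CIH counts, and mmu-miR-99a-5p supplied 89.4% to 91.7% of that. These shares did not overlap between the groups, but the summed TMM-scaled levels did, at 59985 to 71191 CPM for Control and 51961 to 60796 for CIH. The 2 miR-125 members together took 0.252% ± 0.061 and 0.260% ± 0.040, of which mmu-miR-125b-5p supplied 69.0% to 74.4%.

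**Figure D1:**
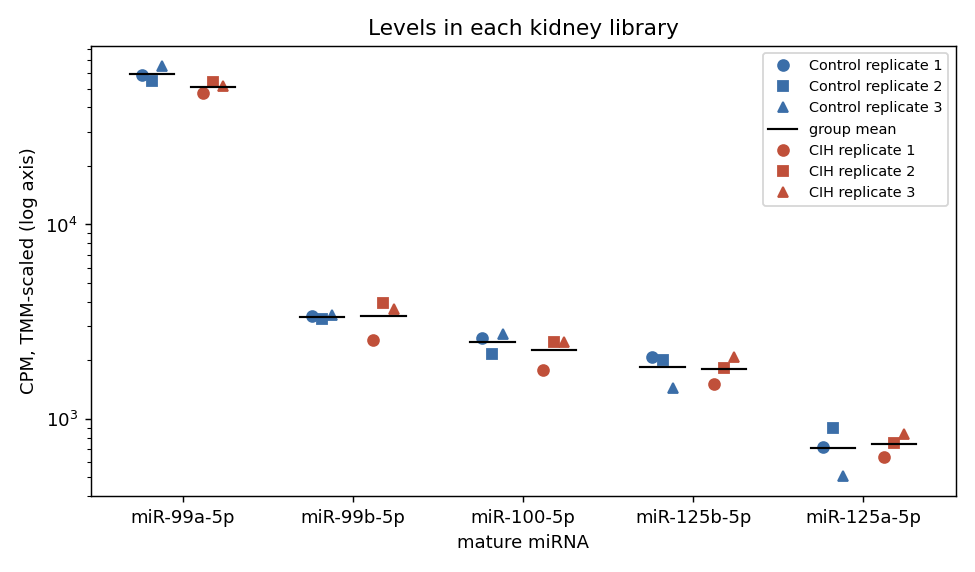
Level of each member in each library, in TMM-scaled CPM on a log axis, with Control in blue, CIH in red, a symbol for each replicate and a black line at the group mean. miR-99a-5p has its lowest point at 47638 CPM, in CIH replicate 1, and only for miR-99a-5p do the Control and CIH points not overlap.

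Among the miR-99/100 members, mmu-miR-99a-5p was lower in every CIH library than in every Control library, but by a small margin and without passing the test. Control replicates 1, 2 and 3 held 58608.5, 54558 and 65049 CPM, and CIH replicates 1, 2 and 3 held 47638, 54338 and 51591. The closest libraries across the groups, Control replicate 2 and CIH replicate 2, were almost level. The CIH to Control ratio was 0.862, a log2 fold change of -0.21 (standard error 0.10, 95% interval -0.45 to 0.02), with an unadjusted p of 0.065 and an adjusted p of 0.71 from edgeR's quasi-likelihood test over all 495 miRNAs. The exact permutation test on its log2 CPM, two-sided, gave p = 0.1, the smallest that 3 samples against 3 allow. The 2 groups also did not overlap with library totals, with DESeq2 size factors or with repeated entries summed. Over all miRNAs tested, the groups did not overlap for 12.5%, lower in CIH for 7.27% and higher for 5.25%, and a single member of 5 cannot be set apart from that background. The log2 fold change was -0.15 without Control replicate 3, the highest library (unadjusted p = 0.145 from edgeR). It was -0.17 without CIH replicate 1 and -0.27 without Control replicate 2. In the last case the unadjusted p of 0.018 from edgeR came with an adjusted p of 0.34.

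mmu-miR-99b-5p, whose precursor lies in Spaca6, was at 3384, 3277 and 3420 CPM in the Control libraries, against 2538, 3960 and 3658 under CIH. The Control libraries agreed closely and the CIH libraries fell on both sides of them, CIH replicate 1 below and the other two above. The group means were 3360 ± 74.2 and 3385 ± 749 CPM (SD, n = 3 each), and the log2 fold change was 0.01 (standard error 0.15, 95% interval -0.33 to 0.35, adjusted p = 1.00 from edgeR). mmu-miR-100-5p was at 2618, 2150 and 2722 CPM in the Control libraries, against 1784, 2498 and 2472 under CIH. The groups overlapped, with CIH replicate 1 lowest of the 6, and the log2 fold change was -0.15 (standard error 0.15, 95% interval -0.48 to 0.18, adjusted p = 0.86).

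The miR-125 members varied as much within the groups as between them. mmu-miR-125a-5p was at 716, 900.0 and 510 CPM in the Control libraries, against 639, 749 and 835 under CIH. Control replicate 2 was the highest and Control replicate 3 the lowest of the 6, so the CIH range lay inside the Control range. Its log2 fold change was 0.06 (standard error 0.19, 95% interval -0.36 to 0.49, adjusted p = 0.95 from edgeR). mmu-miR-125b-5p was at 2086, 2005 and 1444 CPM in the Control libraries, against 1503, 1832 and 2082 under CIH. Here too Control replicate 3 was lowest, the groups overlapped, and the log2 fold change was -0.03 (standard error 0.16, 95% interval -0.40 to 0.33, adjusted p = 0.98). This miRNA is listed at both of its precursors, and the entry with the higher total was used. The other entry held 95.01% to 98.9% as many counts in each library, so the entries cannot be read as the output of separate loci.

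None of the 5 members passed an adjusted p of 0.05, nor an unadjusted p of 0.05, nor the thresholds printed in the study's supplement (an unadjusted p no higher than 0.05 together with a change of 1.5-fold or more). Over all 495 miRNAs these rules called 0, 39 and 19, or 0%, 7.88% (2.83% higher and 5.05% lower in CIH) and 3.84%. edgeR's exact test, DESeq2 and limma also called 0 at an adjusted p of 0.05, and had 35, 29 and 35 at an unadjusted p under 0.05. The 95% intervals of all 5 log2 fold changes lay within the 1.5-fold bounds. The log2 fold change was negative for 3 of the 5, against 51.7% of all miRNAs. The median of the members was -0.03, and over all miRNAs it was -0.003. Counting error was small beside the spread between replicates. The lowest count of a member in any library was 3434, and for mmu-miR-99a-5p in Control the coefficient of variation was 8.91% where counting alone gives 0.161%. For mmu-miR-125a-5p in Control these were 27.6% and 1.49%.

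**Figure D2:**
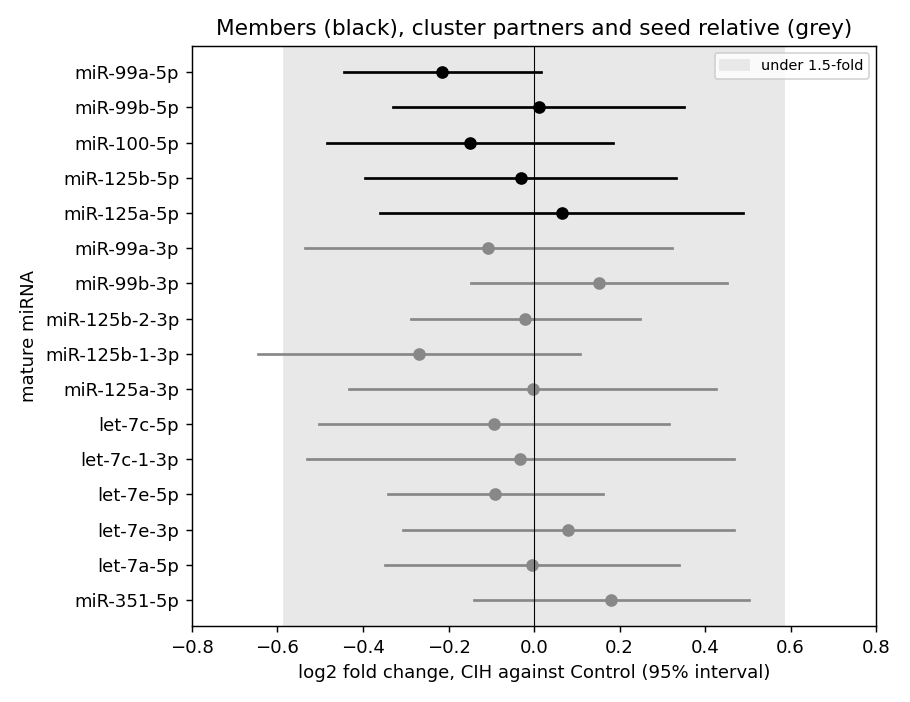
Log2 fold change of CIH against Control with its 95% interval from edgeR for the 5 members (black) and for cluster partners and the seed relative miR-351-5p (grey), with the range under 1.5-fold shaded. Every interval crosses 0, that of miR-99a-5p reaching from -0.45 to 0.02.

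The other miRNAs of the 3 clusters also showed no call. Of 12 such strands, 10 were in the table, 8 with a negative and 2 with a positive log2 fold change, between -0.27 and 0.15, and 0 of the 10 reached an unadjusted p under 0.05 from edgeR. The groups did not overlap for 1 of the 10, the passenger strand mmu-miR-125b-1-3p, at 11.2, 11.8 and 11.1 CPM in the Control libraries, against 9.41, 8.60 and 10.3 under CIH (log2 fold change -0.27, standard error 0.17, adjusted p = 0.79). Its counts were only 63 to 86 per library. Over all miRNAs the groups did not overlap for 12.5% (7.27% lower in CIH), so 1 of 10 cannot be set apart from that background. Of all miRNAs, 51.7% had a negative log2 fold change and 7.88% an unadjusted p under 0.05 from edgeR. mmu-let-7e-5p, between Mir99b and Mir125a, was at 625, 755 and 632 CPM in the Control libraries, against 650.3, 607 and 632 under CIH. mmu-let-7c-5p, next to Mir99a, was at 7693, 11461 and 6375 CPM in the Control libraries, against 8218, 7561 and 8137 under CIH. As for mmu-miR-125a-5p, its highest level was in Control replicate 2 and its lowest in Control replicate 3. mmu-miR-351-5p, from the X chromosome, was the only other listed miRNA with the miR-125 seed among the 413 names matched to a RefSeq sequence:
mmu-miR-351-5p: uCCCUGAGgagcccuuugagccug
It was at 137, 143.6 and 109.7 CPM in the Control libraries, against 164, 132 and 145.4 under CIH. The groups overlapped, and the log2 fold change was 0.18 (standard error 0.14, adjusted p = 0.81 from edgeR).

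Each precursor gives a strand from either arm of its hairpin, and the 5p strand dominated throughout. The hairpins of Mir99a, the most lopsided of those measured, and of Mir125b-1 are shown with both mature strands in capitals, the 5p first:
Mir99a: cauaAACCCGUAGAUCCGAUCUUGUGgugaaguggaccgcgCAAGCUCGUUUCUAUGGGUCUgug
Mir125b-1: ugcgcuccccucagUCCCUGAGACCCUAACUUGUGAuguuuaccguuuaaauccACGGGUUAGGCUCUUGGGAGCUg
mmu-miR-99a-5p exceeded mmu-miR-99a-3p by 6660-fold to 9478-fold, the 3p strand having 40 to 57 counts per library. mmu-miR-99b-5p exceeded its 3p strand by only 24.2-fold to 37.3-fold, and mmu-miR-125a-5p its own by 51.3-fold to 84.8-fold. mmu-miR-125b-5p, which pools the output of both loci, exceeded mmu-miR-125b-1-3p by 130-fold to 213-fold and mmu-miR-125b-2-3p by 10.99-fold to 16.1-fold. The 3p strand of Mir125b-2, on chromosome 16, was thus more abundant than that of Mir125b-1 in every library, with 127 to 146 CPM against 8.60 to 11.8 CPM. The 3p strand of miR-100 was not analysed here. For all 5 strand ratios the Control and CIH ranges overlapped.

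The members also varied from library to library within the groups. All 5 members were lowest in CIH replicate 1 among the CIH libraries, and for mmu-miR-99a-5p, mmu-miR-99b-5p and mmu-miR-100-5p it was the lowest of all 6, with log2 deviations of -0.21, -0.40 and -0.40 from the mean of the 6 libraries. Of the members' own 3p strands, 5 in all, mmu-miR-125b-2-3p was also lowest of the 6 there, at 127 CPM. It was close to the 129 CPM of CIH replicate 3, and on library totals Control replicate 3 was lowest instead. The other 4 strands lay within their range in the remaining libraries: mmu-miR-99a-3p was at 7.15 CPM, mmu-miR-99b-3p at 105, mmu-miR-125a-3p at 10.4 and mmu-miR-125b-1-3p at 9.41. In that library the urothelial mmu-miR-205-5p stood at 0.50 CPM, against 18.6 to 38.8 in the other 5, and mmu-miR-9-5p, the only neuronal marker analysed of the 2 listed, at 502.98 CPM, against 768 to 994. Their part in the dip was not tested. In Control replicate 3, mmu-miR-99a-5p and mmu-miR-100-5p were at their highest in TMM-scaled CPM, 0.24 and 0.21 above their means. The share of library counts was also highest there for mmu-miR-99a-5p (6.04%). For mmu-miR-100-5p the share was 0.253%, below 0.260% in Control replicate 1 and 0.256% in CIH replicate 3. mmu-miR-99b-5p was near its mean, at 0.03, whereas mmu-miR-125a-5p and mmu-miR-125b-5p were at their lowest, at -0.48 and -0.32, also by share. The summed tubule markers were also highest in that library, at 205312 CPM against 144364 to 172559 in the other 5. So were the sums for endothelium (59944 CPM) and for smooth muscle and mesenchyme (57393 CPM), and mmu-miR-9-5p (994 CPM). That library had the lowest TMM factor, 0.9291, which raises its scaled levels. On library totals the tubule sum was still highest there. The sums for endothelium and for smooth muscle and mesenchyme, and mmu-miR-9-5p, were not. Within the tubule list, mmu-miR-194-5p went the other way and was lowest of the 6 there, at 8032 CPM. The erythroid sum was also lowest of the 6 there, at 4952 CPM, with CIH replicate 2 close at 4961 CPM. The part of these markers in the pattern was not tested. In CIH replicates 2 and 3, mmu-miR-99b-5p and mmu-miR-100-5p lay above their means and mmu-miR-99a-5p just below.

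**Figure D3:**
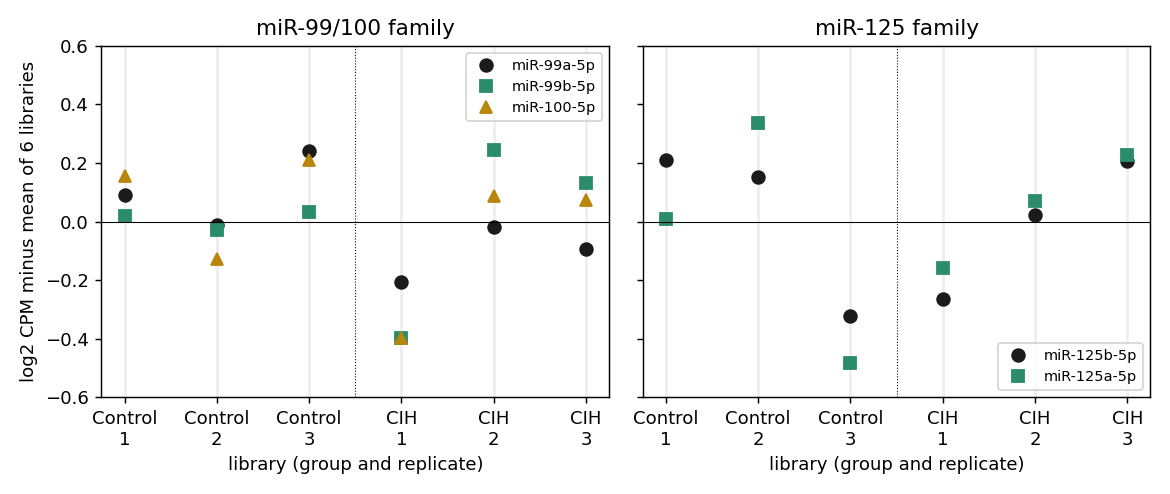
Deviation of each member's log2 CPM from its mean over the 6 libraries, by library, for the miR-99/100 family (left) and the miR-125 family (right), with a dotted line between Control and CIH. In Control replicate 3, miR-99a-5p stands at 0.24 and miR-125a-5p at -0.48, and in CIH replicate 1 all 5 lie below 0.

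Ratios of counts within a library do not depend on normalization, and they were steadier between members of a family than between neighbours in a cluster. For 3 pairs with a shared seed, the SD of the log2 ratio over the 6 libraries was 0.14 for mmu-miR-99a-5p to mmu-miR-100-5p, 0.15 for mmu-miR-125a-5p to mmu-miR-125b-5p and 0.20 for mmu-miR-99a-5p to mmu-miR-99b-5p, although in each case the precursors lie on different chromosomes. For 6 pairs of cluster neighbours it ran from 0.26 to 0.38. The pairs with mmu-miR-125b-5p or mmu-let-7c-5p hold a strand that is also made at a locus on another chromosome. Only the pairs of the chromosome 17 cluster, at 0.26, 0.27 and 0.32, compare strands made at that cluster alone. Over all 2278 pairs of the 68 miRNAs with a mean of at least 1000 CPM, the median SD was 0.21. The SD of mmu-miR-99a-5p to mmu-miR-99b-5p was close to that median. For the 5 pairs of a 5p with a 3p strand, the SD ran from 0.19 to 0.28. mmu-miR-99b-5p and mmu-miR-125a-5p, cut from the same 692 bp, had ratios of 4.72, 3.64 and 6.71 in Control and 3.97, 5.29 and 4.38 in CIH. The ratio of mmu-miR-99a-5p to mmu-miR-100-5p was 22.4, 25.4 and 23.9 in Control and 26.7, 21.8 and 20.9 in CIH. The difference between kinds of pair rested in part on Control replicate 3: without it the cluster pairs ran from 0.13 to 0.30 and the family pairs from 0.14 to 0.19, which overlap, while without any other single library they did not overlap. Members of a family also resemble each other in sequence, so reads assigned to the wrong member could steady their ratio, and the part of this was not tested. For all 14 pairs compared, strand pairs included, the ranges of the ratio in CIH and Control overlapped, and the difference in mean log2 ratio lay between -0.20 and 0.25. The exact permutation test, two-sided, gave p of 0.3 or more for each (0.86 or more adjusted over the 14 pairs), but with 3 samples against 3 it cannot go below 0.1, so it does not show that the ratios were alike.

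**Figure D4:**
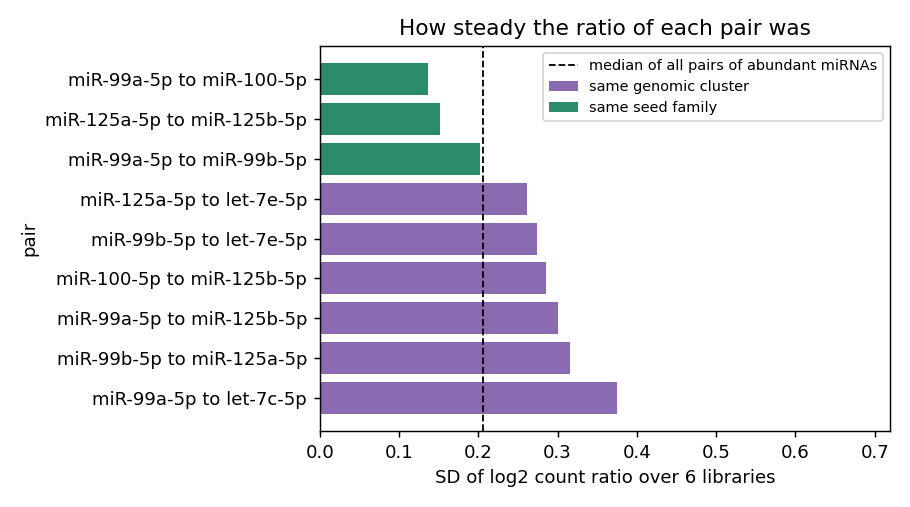
SD of the log2 count ratio over the 6 libraries for each pair, in green for pairs with the same seed and in purple for neighbours in a genomic cluster, with a dashed line at the median of all pairs of abundant miRNAs (0.21). The 3 green bars end at 0.20 or below and the 6 purple bars at 0.26 or above. In the purple pairs, miR-125b-5p and let-7c-5p are also made at a locus outside the cluster.

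The abundant miRNAs that tracked each member most closely were sought among the other miRNAs. Of the cluster partners only mmu-let-7c-5p and mmu-let-7a-5p were abundant enough to be candidates. By the SD of the log2 ratio over the 6 libraries, among other miRNAs of at least 1000 CPM, mmu-miR-99a-5p was nearest to mmu-miR-218-5p (0.05) and mmu-miR-30d-5p (0.06), closer than to any other member. mmu-miR-99b-5p was nearest to mmu-miR-23a-3p (0.10) and mmu-miR-23b-3p (0.14), and mmu-miR-100-5p to mmu-miR-23a-3p (0.14) and mmu-miR-10a-5p (0.15). For mmu-miR-125a-5p they were mmu-let-7b-5p (0.16) and mmu-let-7d-5p (0.17), and for mmu-miR-125b-5p mmu-miR-451a of red cells (0.16) and mmu-miR-30c-5p (0.17). Members were left out of these candidates. A fellow member was slightly closer for mmu-miR-100-5p (mmu-miR-99b-5p, 0.133 against 0.137). The miR-125 members were also slightly closer to each other, at 0.152 against 0.158 for mmu-miR-125a-5p and 0.157 for mmu-miR-125b-5p. For mmu-miR-99b-5p, mmu-miR-23a-3p was closer than any member. mmu-miR-218-5p and mmu-miR-30d-5p had log2 fold changes of -0.19 and -0.20, against -0.21 for mmu-miR-99a-5p, and both had groups that overlapped. These are descriptions over 6 libraries, in which the fold changes but not the ratios depend on the scaling. The nearest were picked from 64 candidates.

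Library totals ran from 5431797 to 7741499 counts. The labelled tissue bore the marks of kidney: the 4 tubule miRNAs, such as mmu-miR-192-5p and mmu-miR-30a-5p, summed to 144364 to 205312 CPM in Control and 148044 to 172559 CPM in CIH. The 4 miRNAs of smooth muscle and mesenchyme summed to 51319 to 57393 CPM in Control and 51195 to 56230 in CIH, and the 2 of endothelium to 49948 to 59944 and 52882 to 56041. Erythroid, leukocyte, urothelial and liver markers were also present, while the neuronal list rested on mmu-miR-9-5p alone, mmu-miR-124-3p not being analysed here. The ranges of the groups overlapped for the sums of all 8 lists, and no marker analysed had an unadjusted p under 0.05 from edgeR. The tubule marker mmu-miR-204-5p was lower in every CIH library, at 40.5, 49.7 and 53.4 CPM against 60.2, 59.2 and 59.4 in Control. Its unadjusted p was 0.053 and its adjusted p 0.64 from edgeR, and groups did not overlap for 12.5% of all miRNAs.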

How the data were processed

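Small RNA reads of 3 Control and 3 CIH kidney samples were made into raw read counts that the authors deposited. The submitters' processing notes list cutadapt and Bowtie, and neither a tool version nor a miRBase release is given in the sources used here. The table held 584 entries for 495 names, and a name listed more than once was represented by its most counted entry. Groups and replicate numbers came from the sample titles. Every miRNA detected in 3 or more libraries was fitted with edgeR 4.0.16 (TMM, quasi-likelihood test, condition as the only term, Benjamini-Hochberg adjustment over 495 miRNAs) in R 4.3.3. Standard errors are the log2 fold change divided by the root of the F statistic. The biological coefficient of variation was 15.7%. Log2 CPM values carry a pseudocount of 0.5, except the log2 deviations of the members, which carry none. Single values were compared with exact permutation tests. Alternatives were DESeq2 1.42.0 and limma 3.58.1, other scalings, filters at a mean of 1 and 10 CPM, summed entries, a replicate block and each library left out. Sequences came from RefSeq and GENCODE M21. The scripts were tested on simulated counts. Named miRNAs were the members, their cluster partners, listed miRNAs with the same seed, and the 2 of at least 1000 CPM with the steadiest ratio to each member. Markers came from the cell type lists. The single markers named (mmu-miR-205-5p, mmu-miR-9-5p, mmu-miR-192-5p, mmu-miR-30a-5p, mmu-miR-194-5p and mmu-miR-204-5p) and single 3p strands were picked after their values were seen. The members and lists were chosen with earlier results of these data known.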

Additional observations from a re-analysis of the deposited data

How the results depend on the processing

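For mmu-miR-99a-5p the log2 fold change kept its sign under all 16 alternatives, from -0.27 to -0.15, with an unadjusted p of 0.018 to 0.22 (under 0.05 in 4 of 16) and an adjusted p of 0.34 to 0.99. mmu-miR-100-5p also kept its sign, from -0.25 to -0.007. No member passed an adjusted p of 0.05 under any alternative. mmu-miR-99b-5p, at 0.01, turned to -0.015 with limma, -0.012 at a mean of at least 1 CPM, -0.0047 at a mean of at least 10 CPM and -0.021 with entries summed. mmu-miR-125b-5p turned to 0.022 with library totals only. With each library left out in turn, mmu-miR-99b-5p ran from -0.12 to 0.18, mmu-miR-125a-5p from -0.13 to 0.27 and mmu-miR-125b-5p from -0.19 to 0.085, so the sign of these 3 is not settled. Library totals moved the median of all miRNAs to 0.06.

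Labels give both groups replicate numbers 1 to 3. Deviations of same-numbered samples correlated at -0.04, -0.03 and 0.03 across miRNAs. These values cannot show whether same-numbered samples were handled together, and the labels state no pairing. With the number as a replicate block, mmu-miR-99b-5p was at -0.014, mmu-miR-99a-5p at -0.21 (unadjusted p = 0.11 from edgeR), and 32 miRNAs had an unadjusted p under 0.05.

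The count at an unadjusted p under 0.05, 39, was 24 at a mean of at least 10 CPM and ran from 21, without CIH replicate 2, to 67, without Control replicate 2 (22 without CIH replicate 1). The count past the study thresholds, 19, was 10 with DESeq2, 2 at a mean of at least 10 CPM and 11 to 20 with a library left out, the lowest without CIH replicate 2. Fewer miRNAs, 302, were tested at 10 CPM. Summing entries raised mmu-miR-125b-5p to 3170 CPM in Control and 3045 CPM in CIH, since the entries hold nearly the same counts.

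Differences in log2 ratio between CIH and Control with a library left out ran from -0.32 to 0.12 for mmu-miR-99b-5p to mmu-miR-125a-5p, -0.082 to 0.29 for mmu-miR-99b-5p to mmu-let-7e-5p, -0.46 to 0.091 for mmu-miR-99a-5p to mmu-let-7c-5p, -0.32 to 0.047 for mmu-miR-99a-5p to mmu-miR-125b-5p, -0.31 to 0.10 for mmu-miR-100-5p to mmu-miR-125b-5p, and -0.16 to 0.015 for mmu-miR-99a-5p to mmu-miR-100-5p. For 5p to 3p strands they ran from -0.25 to 0.0078 in miR-99a, -0.30 to 0.0081 in miR-99b, -0.12 to 0.25 in miR-125a and -0.14 to 0.11 for mmu-miR-125b-5p to mmu-miR-125b-2-3p.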
